A study of Mus musculus with 6 samples.

Results

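Chemokines and their receptors were followed through histone-mark maps of 6 mouse tissue sections. Members were all genes whose symbol begins with Ccl, Cxcl, Ccr or Cxcr followed by a digit, which gave 53 genes (36 ligands and 17 receptors) of the 19378 genes listed. Neither atypical receptors nor the Cx3c and Xc families fall under that rule, and some of these are given as other genes of the pathway. The arthritis paw file held 28 members (19 ligands and 9 receptors) and the control paw file all 53. The embryo files held 51 members for H3K27ac, 52 for H3K27me3 and 46 for H3K4me3, and the brain file held 28.

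An antibody against the mark guided a transposase that cut the marked chromatin over barcoded array spots, so each gene has a read number in every spot. The paws were adult and profiled for H3K27ac. In one, arthritis had been induced with collagen, a model in which immunisation against collagen inflames the joints, and its label gives 42 days. The other was a control whose label also gives 42 days. Both paws were fixed, decalcified in acid, embedded in paraffin and cut at 4 µm near the talus. The embryo sections were wild-type whole embryos at E11.5, cut at 16 µm and profiled for H3K27ac, H3K27me3 or H3K4me3. The brain section was adult wild type, cut at 20 µm and profiled for H3K4me3. The labels used here name no strain. Each combination of tissue and mark was 1 section, so no spread between animals could be measured. No p-value is given, and intervals are 95% intervals of counting error alone.

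Chemokines are small secreted proteins that guide leukocytes along gradients by binding receptors coupled to inhibitory G proteins. Some are induced in inflamed tissue and recruit neutrophils, monocytes and activated T cells, whereas others are made steadily in lymphoid organs, bone marrow or skin. In inflamed joints, synovial fibroblasts, macrophages and endothelium are known sources of the ligands. H3K27ac accompanies active enhancers and promoters, H3K4me3 accompanies promoters, and H3K27me3 is the mark of Polycomb repression.

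Promoter sequences are shown for the members that differed most between the paws, and for Cxcl10, the ligand with the most brain reads. Each is the 250 bases before the annotated start of the gene in RefSeq (GRCm38.p6), printed in the direction of the gene. Windows were found for 38 of the 53 members. Capitals mark matches to AP-1 (TGANTCA), to NF-kB or to the interferon response element (the last ones by consensus, searched as 10 letters each), on both strands.
Ccr4 (chr9:114496545-114496794, minus strand): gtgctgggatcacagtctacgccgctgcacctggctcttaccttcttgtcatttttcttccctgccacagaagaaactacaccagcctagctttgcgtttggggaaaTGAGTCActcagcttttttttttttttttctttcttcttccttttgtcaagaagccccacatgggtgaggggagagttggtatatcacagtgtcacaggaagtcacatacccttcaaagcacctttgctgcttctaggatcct
Cxcl12 (chr6:117168285-117168534, plus strand): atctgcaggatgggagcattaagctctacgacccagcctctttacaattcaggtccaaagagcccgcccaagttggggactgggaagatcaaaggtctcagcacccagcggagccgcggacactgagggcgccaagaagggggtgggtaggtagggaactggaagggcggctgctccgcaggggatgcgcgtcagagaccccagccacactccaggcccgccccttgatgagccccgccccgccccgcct
Ccl20 (chr1:83116516-83116765, plus strand): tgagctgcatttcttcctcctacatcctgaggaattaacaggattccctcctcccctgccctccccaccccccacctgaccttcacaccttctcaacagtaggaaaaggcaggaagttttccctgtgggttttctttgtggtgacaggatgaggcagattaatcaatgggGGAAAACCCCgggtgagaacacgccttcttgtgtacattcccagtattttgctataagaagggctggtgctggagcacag
Ccr8 (chr9:120091883-120092132, plus strand): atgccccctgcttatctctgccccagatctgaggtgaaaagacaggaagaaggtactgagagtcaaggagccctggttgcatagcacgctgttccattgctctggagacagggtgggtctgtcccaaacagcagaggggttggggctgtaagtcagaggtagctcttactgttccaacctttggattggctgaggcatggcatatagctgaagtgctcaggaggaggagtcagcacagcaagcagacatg
Cxcl10 (chr5:92348890-92349139, minus strand): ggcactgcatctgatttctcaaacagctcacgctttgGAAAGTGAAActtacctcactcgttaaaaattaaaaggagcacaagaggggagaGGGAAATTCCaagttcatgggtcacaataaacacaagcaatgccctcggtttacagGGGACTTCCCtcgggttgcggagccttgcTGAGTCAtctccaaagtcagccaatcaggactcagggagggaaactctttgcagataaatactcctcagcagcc

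Ccr4 held 1 AP-1 match, Ccl20 held 1 NF-kB match, and Cxcl10 held 2 NF-kB matches with 1 AP-1 and 1 interferon response match that did not overlap one another. None of these motifs was found in the windows of Cxcl12 and Ccr8. Over all 27025 promoters, NF-kB matched in 3.75%, AP-1 in 6.87% and the interferon response element in 3.04%. Among the 38 members with a window, NF-kB matched in 7 (Ccl9, Ccl20, Cxcl1, Cxcl2, Cxcl3, Cxcl10 and Ccr3). AP-1 matched in 4 (Ccl9, Cxcl10, Ccr3 and Ccr4) and the interferon response element in 3 (Ccl19, Cxcl10 and Cxcl14). A TATA box (TATAAA) matched in 9 members against 12.97% of all promoters. The median window held 5 CpG dinucleotides in ligands (n = 25) and 2 in receptors (n = 13), against 6 over all promoters. A match describes letters and is no evidence of binding.

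The sections had 248 to 1200 spots and 403483 to 5981684 recovered reads. The median gene held 274 reads in the arthritis paw, 142 in the control paw, 120 in the brain and 7 to 14 in the embryo. The median spot held 5296 reads in the arthritis paw and 10114.5 in the control paw. Shares of spots with a read depend on this depth as well as on a gene's level. A level is a gene's reads divided by the mean reads per gene of its section. The number of members above the mean gene was 7 of 28 in the arthritis paw and 8 of 53 in the control paw. The shares of all genes above it were 26.4% and 22.2%. In the embryo 11 of 51, 11 of 52 and 6 of 46 members lay above it under H3K27ac, H3K27me3 and H3K4me3. The shares of all genes there were 22.7%, 20.6% and 17.5%. In the brain it was 5 of 28 members, against 29.4% of all genes. The median member lay at a level of 0.267 to 0.432, and the median of all genes at 0.313 to 0.668. In the embryo 26, 26 and 27 members held fewer than 10 reads under the marks in the same order, so most single members there are poorly measured. In each section, more reads in a gene from more cells carrying the mark and from more mark per cell cannot be told apart. The span over which a gene's reads were counted is not given in the sources used here, and the rank correlation of reads with gene length was 0.145 to 0.193.

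**Figure D1:**
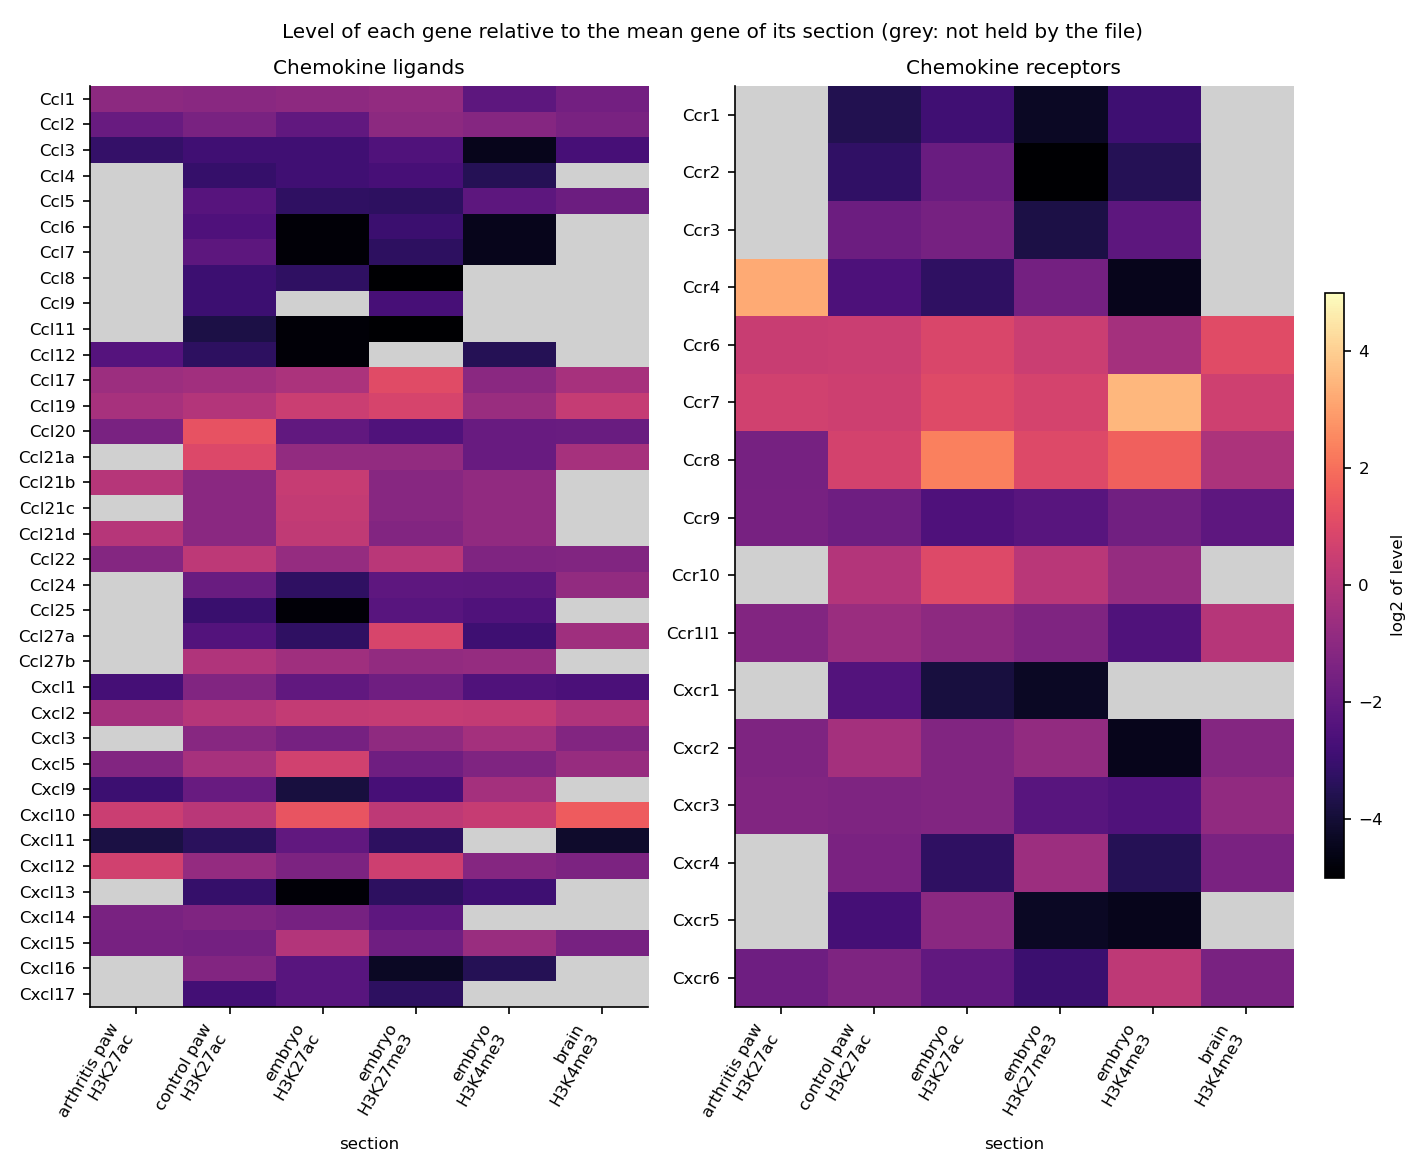
Level of chemokine ligands (left) and receptors (right) in the 6 sections (columns, 1 section each), as log2 of reads over the mean reads per gene of that section. Grey cells are genes not held by that file. The brightest cells are Ccr7 in embryo H3K4me3 (11.3 times the mean gene) and Ccr4 in the arthritis paw (9.25 times).

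The comparison of the paws asks how H3K27ac on chemokine genes differs in an inflamed joint. The members past 2-fold were the T helper receptor gene Ccr4, the homeostatic ligand genes Cxcl12, Ccl21b and Ccl21d, and, on the control side, Ccl20 and Ccr8. Of the 28 members held by both paws, 4 had a log2 ratio of arthritis over control of 1 or more, which is 2-fold, against 11.6% of the 11130 genes compared. The log2 ratio was -1 or less for 2 members, against 7.88% of all genes. With the Ccl21 copies, whose reads were nearly equal, counted once, 3 of 27 members were at 1 or more, against 11.6%. These counts lie near the shares of all genes and do not set the members apart from other genes. The median log2 ratio was 0.11 over the 19 ligands and 0.31 over the 9 receptors, against 0.11 over all genes compared. Ratios used levels over the genes held by both paws, with 0.1 added to each level, which understates the ratio of genes with few reads.

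Ccr4, the receptor of Ccl17 and Ccl22 on skin-homing, type 2 helper and regulatory T cells, held 4442 reads (counting interval 4312 to 4575) in the arthritis paw and 52 (38.8 to 68.2) in the control paw. Its level was 9.25 times the mean gene in arthritis and 0.128 in control. The log2 ratio was 5.36 (5.12 to 5.58), and of the 11130 genes only 1 had a higher one. In the arthritis section 72 genes held more reads than Ccr4, whereas in the control section 16625 of 19378 did.

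The excess of Ccr4 lay all over the section. At least 1 read was found in 889 of 943 arthritis spots, with at most 25 in a spot, and in 47 of 554 control spots, with at most 2. Its level was also taken in 4 bands of array rows, here relative to all genes of its own section. It ran from 8.15 to 9.86 in arthritis and from 0.126 to 0.213 in control. The bands are parts of 1 section per paw and not replicates, so they describe evenness within a section alone. The next gene in RefSeq order, Trim71, had 236 reads in arthritis and 337 in control, so the difference did not extend to it.

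The ligands of Ccr4 did not share its difference. Ccl17 held 319 reads in arthritis and 223 in control, a log2 ratio of 0.23 (0.02 to 0.45). Ccl22 held 211 and 344, a log2 ratio of -0.82 (-1.03 to -0.60). In the embryo Ccr4 had 3 reads under H3K27ac, 13 under H3K27me3 and 1 under H3K4me3, and the brain file did not list it. Its high level was therefore seen in 1 of the 5 sections that list it.

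**Figure D2:**
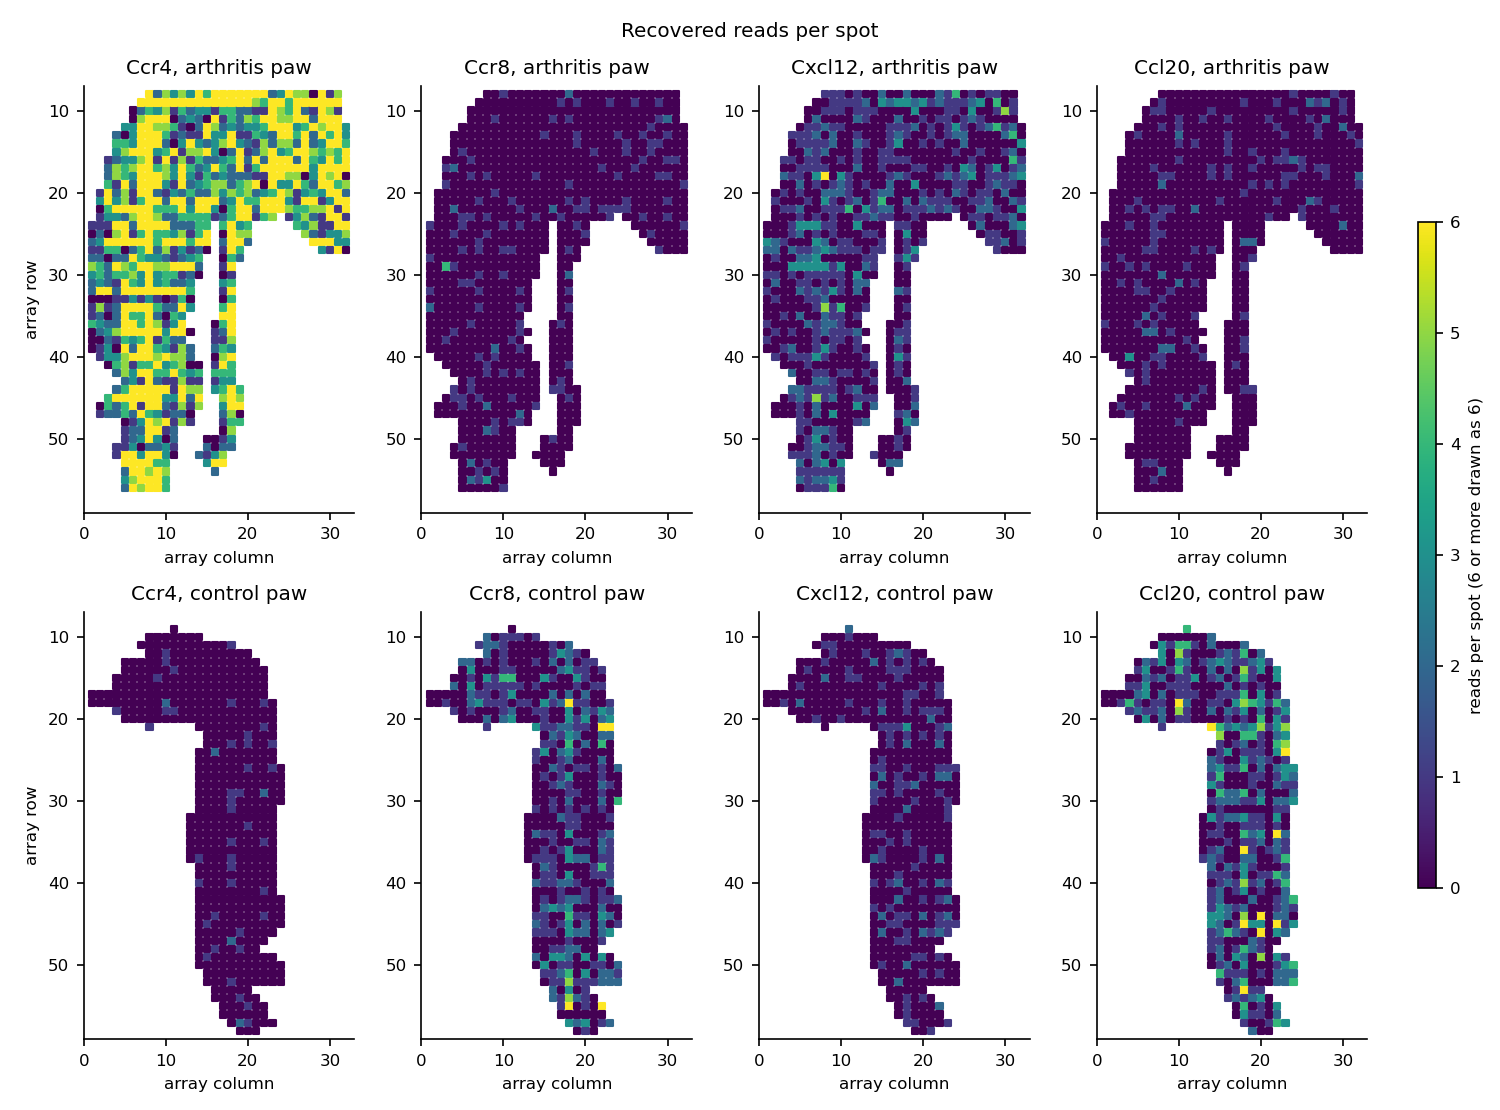
Recovered reads of Ccr4, Ccr8, Cxcl12 and Ccl20 in each array spot of the arthritis paw (top row) and the control paw (bottom row), 1 section each, by array column and array row, with 6 or more reads drawn as 6. Ccr4 reads fill 889 of 943 spots in arthritis and 47 of 554 in control, and Ccl20 and Ccr8 reads are denser in the control section. Spots of the control section held more reads over all genes (median 10114.5 against 5296).

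Cxcl12, which retains haematopoietic cells in bone marrow and is made by stromal fibroblasts, held 753 reads in arthritis and 179 in control. Its level was 1.57 against 0.442, a log2 ratio of 1.62 (1.42 to 1.82). Reads were found in 489 of 943 arthritis spots and 146 of 554 control spots. Across the bands of array rows its own-section level ran from 1.43 to 1.66 in arthritis and from 0.537 to 0.676 in control. Its receptor gene Cxcr4 held 115 control reads and was not listed in the arthritis file.

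Ccl21b and Ccl21d, copies of a ligand that draws Ccr7-bearing T cells and dendritic cells to lymph nodes, held 493 and 492 reads in arthritis and 152 and 151 in control. Their log2 ratios were 1.24 (1.02 to 1.46) and 1.25 (1.03 to 1.47). These are 1 observation, since the reads of Ccl21b and Ccl21d were equal in 942 of 943 arthritis spots and 553 of 554 control spots. Ccl21c, held by the control file alone, equalled Ccl21d in all 554 spots. Ccl21a had reads of its own, 597 in the control paw, and equalled Ccl21b in 242 of 554 spots.

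The promoters of Ccl21a and Ccl21d are shown because they are nearly alike, although the reads of the genes were not. In the control paw these held 597 and 151 reads, and the reads shared by spot were 14.7% of those found in either gene. The window of Ccl21b, whose reads nearly equalled those of Ccl21d, held 37 CpG dinucleotides against 5 for Ccl21d. How the counting assigned reads among the copies is not given. With a shift of 1 base, the windows of Ccl21a and Ccl21d differed at 1 of 249 bases, which is in capitals.
Ccl21a (chr4:42773992-42774241, minus strand): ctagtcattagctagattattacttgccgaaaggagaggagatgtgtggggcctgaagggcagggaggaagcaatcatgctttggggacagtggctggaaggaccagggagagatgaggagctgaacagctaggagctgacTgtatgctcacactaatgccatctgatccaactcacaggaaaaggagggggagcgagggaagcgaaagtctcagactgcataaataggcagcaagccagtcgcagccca
Ccl21d (chr4:41903363-41903612, plus strand): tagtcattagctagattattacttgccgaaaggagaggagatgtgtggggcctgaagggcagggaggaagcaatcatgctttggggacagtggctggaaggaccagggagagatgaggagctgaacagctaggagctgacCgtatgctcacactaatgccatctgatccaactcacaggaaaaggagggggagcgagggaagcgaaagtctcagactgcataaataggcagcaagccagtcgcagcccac

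Ccl20, the ligand that attracts Ccr6-bearing type 17 helper T cells and dendritic cells to epithelia, was the lowest member. It held 175 reads in arthritis and 758 in control. Its level was 0.364 against 1.87, a log2 ratio of -2.09 (-2.28 to -1.89). Across the bands of array rows its own-section level ran from 0.343 to 0.378 in arthritis and from 2.30 to 2.67 in control, where it was the member with the most reads. The neighbouring gene Daw1 differed the other way, with 766 reads in arthritis and 129 in control.

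Ccr8, a receptor of Ccl1 on type 2 helper and regulatory T cells of the skin, held 164 reads in arthritis and 514 in control. Its level was 0.342 against 1.27, a log2 ratio of -1.63 (-1.84 to -1.42). Reads lay in 146 of 943 arthritis spots and 293 of 554 control spots, where the median spot held more reads over all genes (10114.5 against 5296). Its ligand gene Ccl1 lay at 0.37 (0.12 to 0.61), with 239 and 147 reads. Ccr4 and Ccr8 are both receptors of these T cell subsets and were the highest and the lowest receptor of the comparison.

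**Figure D3:**
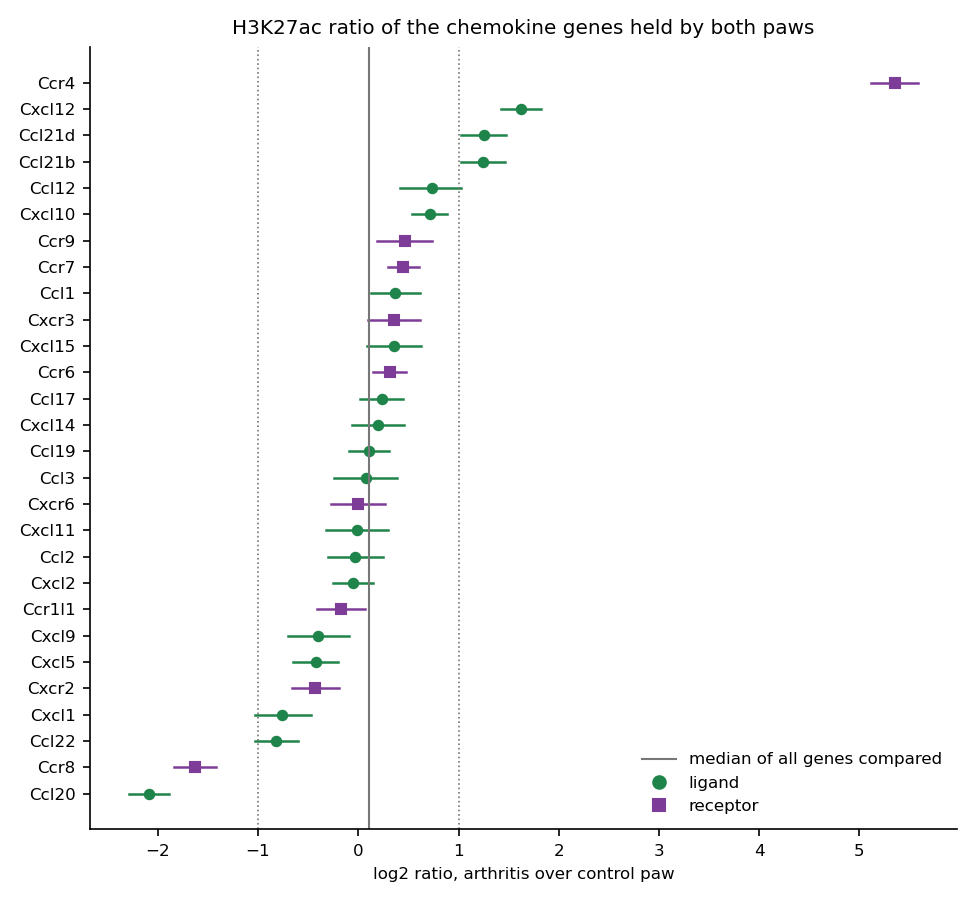
Log2 ratio of H3K27ac level, arthritis over control paw, for the 28 chemokine genes held by both files (1 section per group), with 95% counting intervals as bars. Dotted lines mark a 2-fold difference and the grey line the median of all genes compared (0.11). Ccr4 stands alone at 5.36, and 22 of the 28 genes lie within 2-fold.

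The neutrophil-attracting Cxc ligands, most of which act through Cxcr2, had no member past 2-fold. Of 5, 4 were held by both paws, with a median log2 ratio of -0.24. Cxcl1 held 71 and 129 reads in arthritis and control and had the lowest ratio, -0.76 (-1.04 to -0.47). Cxcl5 lay at -0.43 (-0.65 to -0.20), Cxcl2 at -0.05 (-0.25 to 0.15) and Cxcl15, a mouse ligand best known from the lung, at 0.36 (0.09 to 0.63). The receptor gene Cxcr2 lay at -0.43 (-0.66 to -0.20), with 190 and 230 reads. Of 8 neutrophil markers, 6 were held by both, with log2 ratios from -0.77 (Elane) to 0.57 (Mpo) and none past 2-fold. Their summed level was 2.61 in arthritis and 4.03 in control, and none was at 0. Their part in the values of the Cxc ligands was not tested.

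The interferon-induced ligands of Cxcr3, which attract type 1 helper and cytotoxic T cells, were all held by both paws and did not move together. Cxcl10 held 666 and 327 reads, a log2 ratio of 0.71 (0.54 to 0.89). Cxcl9 lay at -0.40 (-0.70 to -0.10) and Cxcl11, with 35 and 30 reads, at -0.01 (-0.32 to 0.30). Their receptor gene Cxcr3 lay at 0.36 (0.10 to 0.62). Of 8 T cell markers, 4 were held by both, with a median of 0.16, a summed level of 7.403 in arthritis and 5.94 in control, and none at 0.

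Of the ligands that attract monocytes and eosinophils, Ccl2 held 128 and 111 reads, a log2 ratio of -0.03 (-0.31 to 0.25). Ccl12, a close relative of Ccl2, held 93 and 31, a log2 ratio of 0.73 (0.42 to 1.02). Ccl3, a ligand of Ccr1, held 55 and 42, a log2 ratio of 0.07 (-0.24 to 0.39). The macrophage markers held by both paws, 3 of 8, had a median of 0.31 and a summed level of 1.60 in arthritis and 0.968 in control. Ccr1l1, a receptor gene beside Ccr1, lay at -0.17 (-0.41 to 0.07).

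The remaining lymphoid and skin ligands lay within 2-fold. Ccl19, the partner of the Ccl21 copies at Ccr7, held 380 and 294 reads, a log2 ratio of 0.11 (-0.09 to 0.31), the same as the median of all genes. Cxcl14, made in skin, lay at 0.20 (-0.06 to 0.46). Among the homing receptors, Ccr7 of naive T cells and mature dendritic cells lay at 0.45 (0.29 to 0.61), with 757 and 456 reads, and Ccr9, which directs T cells to the gut, at 0.46 (0.19 to 0.73). Ccr6, the receptor of Ccl20, lay at 0.31 (0.15 to 0.48), and Cxcr6, the receptor of Cxcl16, at -0.01 (-0.27 to 0.26). The intervals of 10 of the 28 members spanned the median of all genes, 8 of them ligands and 2 the receptors Cxcr3 and Cxcr6.

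Other cell type markers differed between the paws beside these values. Summed levels over the markers held by both were 10.0 in arthritis and 4.97 in control for keratinocytes (5 of 6 held), 1.499 and 7.70 for B cells (3 of 5), and 0.908 and 3.12 for endothelium (3 of 5). They were 2.40 and 2.43 for synovial fibroblasts (3 of 6). Single log2 ratios ran from 0.61 (Krt1) to 1.58 (Klf4) for keratinocytes and from -3.24 (Ms4a1) to 0.57 (Pax5) for B cells. For endothelium they ran from -2.40 (Kdr) to -0.23 (Pecam1), and for synovial fibroblasts from -0.47 (Pdpn) to 0.53 (Cdh11). No marker held had a level of 0, and the part of these cell types in the chemokine values was not tested.

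Among 31 other genes of the pathway, 19 were held by both paws, with a median log2 ratio of 0.38. The ratio was 1 or more for Xcr1, the receptor of cross-presenting dendritic cells, at 2.05 (728 and 118 reads), for the scavenging receptor Ackr4 at 1.18, and for Rgs1, which shortens G protein signals, at 1.01. It was -1 or less for Gnai2, the inhibitory G protein that couples most chemokine receptors, at -1.02 (197 and 379 reads). Of all genes compared, 11.6% were at 1 or more and 7.88% at -1 or less. Cx3cr1, the fractalkine receptor and the gene next to Ccr8, lay at 0.59.

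Within the control paw, array columns 1, 5, 9, 13, 17 and 21 held 12.9% of all reads but larger shares of some members. Of 40 members with at least 50 reads, 8 had over 1.5 times that share there. They were led by Cxcl9 (2.45 times), Cxcl15 (2.10), Cxcl3 (2.09), Cxcr3 (1.97) and Ccr9 (1.83). How many of all genes passed 1.5 times was not counted, so the members are not set apart from other genes by this. Cxcl12 had 1.34 times, Ccr8 0.783 times and Ccl20 0.562 times that share. With these columns left out, the members past 2-fold numbered 4 and 2 as before.

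The control file held 25 members that the arthritis file did not, 47.2% of the 53, against 42.6% of all 19378 genes. Of the ligands these were 17: Ccl4, Ccl5, Ccl6, Ccl7, Ccl8, Ccl9, Ccl11, Ccl21a, Ccl21c, Ccl24, Ccl25, Ccl27a, Ccl27b, Cxcl3, Cxcl13, Cxcl16 and Cxcl17. Of the receptors these were 8, including Ccr1, Ccr2, Ccr3, Ccr10, Cxcr1, Cxcr4 and Cxcr5. The arthritis file listed no member that the control file lacked. Whether these genes had no reads in the arthritis section or were left out of its file cannot be told apart, so no fold is given. Over all genes, those held by the control file alone had 9 to 18882 control reads. Absence from the arthritis file is therefore not read as low H3K27ac.

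The share held by both paws varied between groups of few genes. Of the ligands in the group of Ccl3, which draw macrophages and activated T cells, 1 of 5 was held by both paws, and of the monocyte and eosinophil ligands 2 of 6. Of the inflammatory receptors 3 of 8 were held by both, and of the homing and T helper receptors 6 of 9. Of the neutrophil-attracting ligands 4 of 5 were held by both. Over all genes of the control file, 42.6% were not held by the arthritis file. Genes not held by both had fewer control reads, with a median of 77 against 211. The group counts take no account of that, and a difference between groups was not tested.

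In the control paw the 25 genes had a median of 59 reads, from 23 (Ccl11, an eosinophil attractant) to 597 (Ccl21a), against 151.5 for the 28 held by both. Over all genes the medians were 77 and 211. Low reads did not mark all of them. Ccr10, the skin-homing receptor of Ccl27, held 295 control reads and its ligand gene Ccl27b held 284. The arthritis file meanwhile listed genes with as few as 10 reads.

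Ccr2, the receptor of inflammatory monocytes, held 33 control reads and Ccr1 held 26. The eosinophil receptor Ccr3 held 89 and the neutrophil receptor Cxcr1 held 59. Cxcr5 and its ligand Cxcl13, which form B cell follicles, held 46 and 36. Cxcl16 held 130 reads and the neighbouring Zmynd15 held 145, and the reads shared by spot were 89.7% of those found in either gene. The ligands Ccl4 to Ccl9 held 36 to 69 reads, Ccl24, Ccl25 and Cxcl17 held 86, 38 and 44, and Ccl27a held 58. Cxcl3, a neutrophil attractant, held 141 and Cxcr4 held 115.

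**Figure D4:**
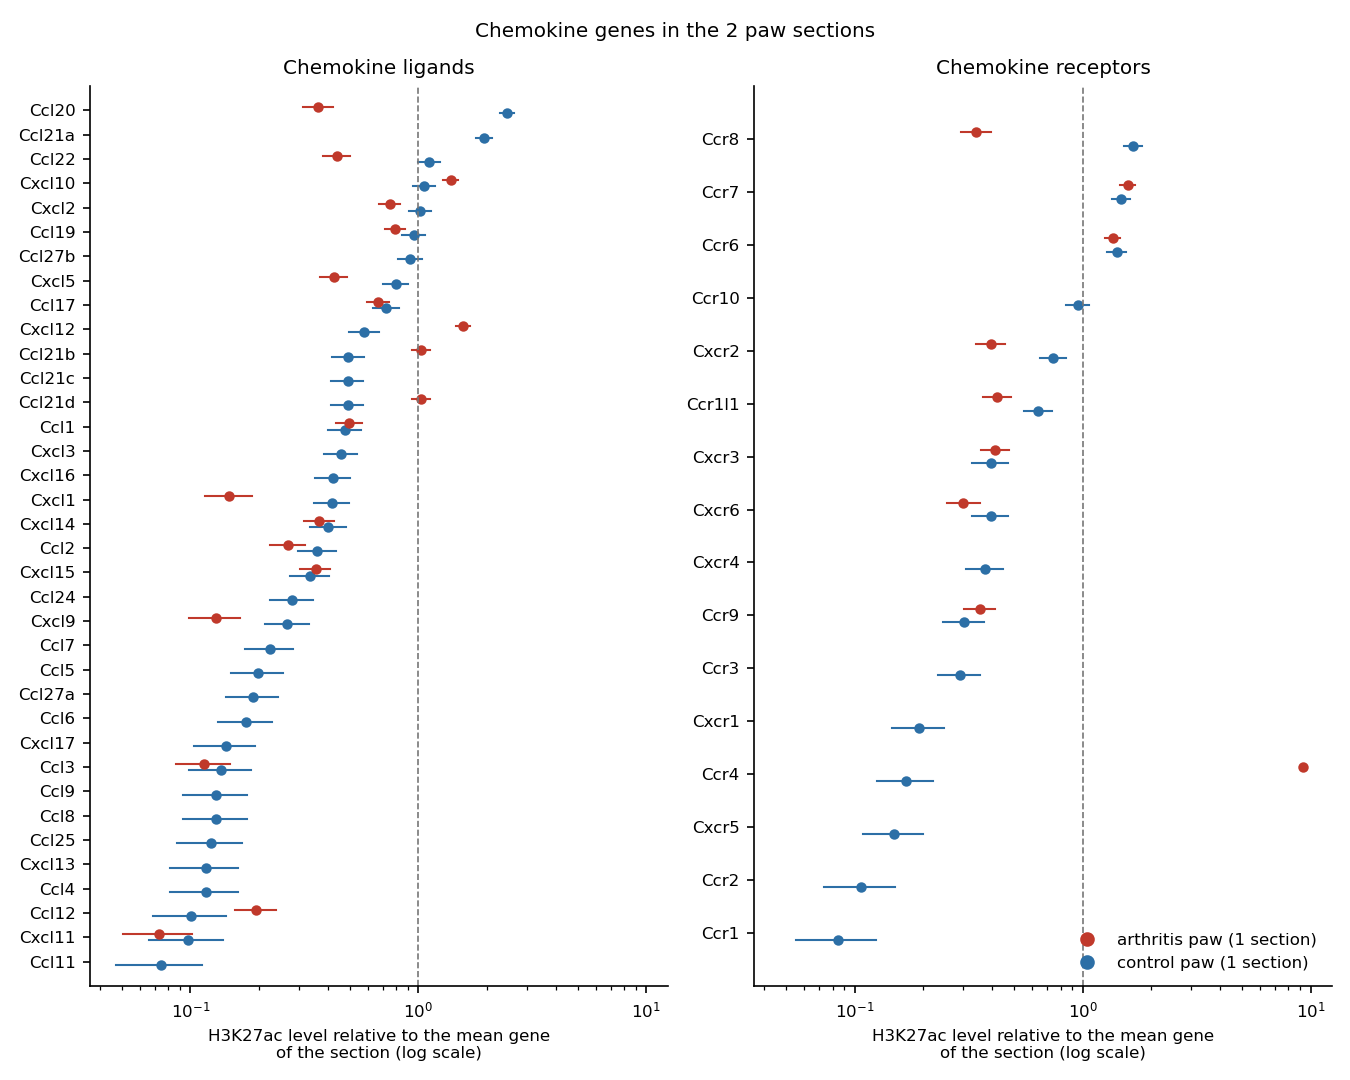
H3K27ac level of chemokine ligands (left) and receptors (right) on a log axis, as reads over the mean reads per gene of its own section, with 95% counting intervals, in the arthritis paw (red) and the control paw (blue), 1 section each. Genes with a blue point alone are held by the control file only. The control file lists more genes of few reads, so its mean gene is lower than over shared genes. The log2 ratios given in the text use levels over shared genes, with a pseudocount added to each level. Those log2 ratios can therefore lie above or below the ratios read from this plot.

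Reads are also given per kilobase of gene, with lengths from RefSeq, although the span counted is not known. In the arthritis paw Ccl21b and Ccl21d held 493 and 492 reads at lengths of 83.7 and 1.13 kb, so their reads did not follow these lengths. Values per kb, here and below, are therefore no ranking of the mark between genes. In the arthritis paw the receptors with the most reads, Ccr4, Ccr7 and Ccr6, held 293, 69.6 and 29.0 reads per kb. The ligands Cxcl12, Cxcl10 and Ccl21b led by reads. Per kb Ccl21d (435) came first and Cxcl10 (296) next, whereas Cxcl12 held 58.7 and Ccl21b, whose annotated span is far longer than that of its copy, held 5.89. In the control paw the ligands Ccl20, Ccl21a and Ccl22 held 316, 527 and 60.3 reads per kb, and the receptors Ccr8, Ccr7 and Ccr6 held 185, 41.9 and 19.4.

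In the embryo the question is which chemokine genes carry the Polycomb mark and which carry active marks. The median log2 ratio of H3K27me3 over H3K27ac was -0.48 over 16 receptors and 0.06 over 34 ligands, against -0.12 over all genes. The intervals of 10 of the 16 receptors spanned the median of all genes. The median of the receptors' lower interval ends was -1.30 and that of their upper ends 0.42. Members most on the H3K27me3 side were Ccl27a, Cxcr4, Cxcl12 and Ccl17, and most on the H3K27ac side Cxcl5, Cxcr5 and Ccr2. The log2 ratio was 1 or more for 6 of 50 members, against 10.4% of the 18653 genes compared, and -1 or less for 11, against 14.1%. Both marks held fewer than 10 reads in 15 of the ligands and 5 of the receptors.

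Ccl27a, a ligand made by keratinocytes, held 70 reads under H3K27me3 and 3 each under H3K27ac and H3K4me3. Its log2 ratio was 3.19 (2.14 to 3.98) against H3K27ac and 2.94 (1.81 to 3.85) against H3K4me3, the highest member in both comparisons. The neighbouring receptor gene Il11ra1 held 78 H3K27me3 reads, and the reads shared by spot were 80.5% of those found in either gene, so these reads cannot be assigned to Ccl27a alone.

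Cxcl12 and Cxcr4, a ligand and receptor that guide germ cells, vessels and neurons in the embryo, both lay on the H3K27me3 side. Cxcr4 held 26 reads under H3K27me3, 3 under H3K27ac and 2 under H3K4me3, with log2 ratios of 1.89 (0.76 to 2.73) and 1.95 (0.65 to 2.79). Cxcl12 held 58, 11 and 10, with 1.70 (0.90 to 2.52) and 1.46 (0.61 to 2.34). All 4 intervals lay above the medians of all genes, -0.12 and 0.08. Ccl17 followed with 82, 24 and 11 reads, log2 ratios of 1.22 (0.61 to 1.86) and 1.82 (1.02 to 2.66).

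On the side of H3K27ac, Cxcl5, a neutrophil attractant, held 45 reads against 12 under H3K27me3, a log2 ratio of -2.03 (-2.80 to -1.25). Cxcr5, of B cells and follicular helper T cells, held 14 against 2, a log2 ratio of -1.95 (-2.59 to -0.79). Ccr2 held 8 against 1, at -1.58 (-2.01 to -0.31). Ccr8 was the member with the most H3K27ac reads in the embryo, 150 against 78 under H3K27me3, at -1.35 (-1.75 to -0.96).

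**Figure D5:**
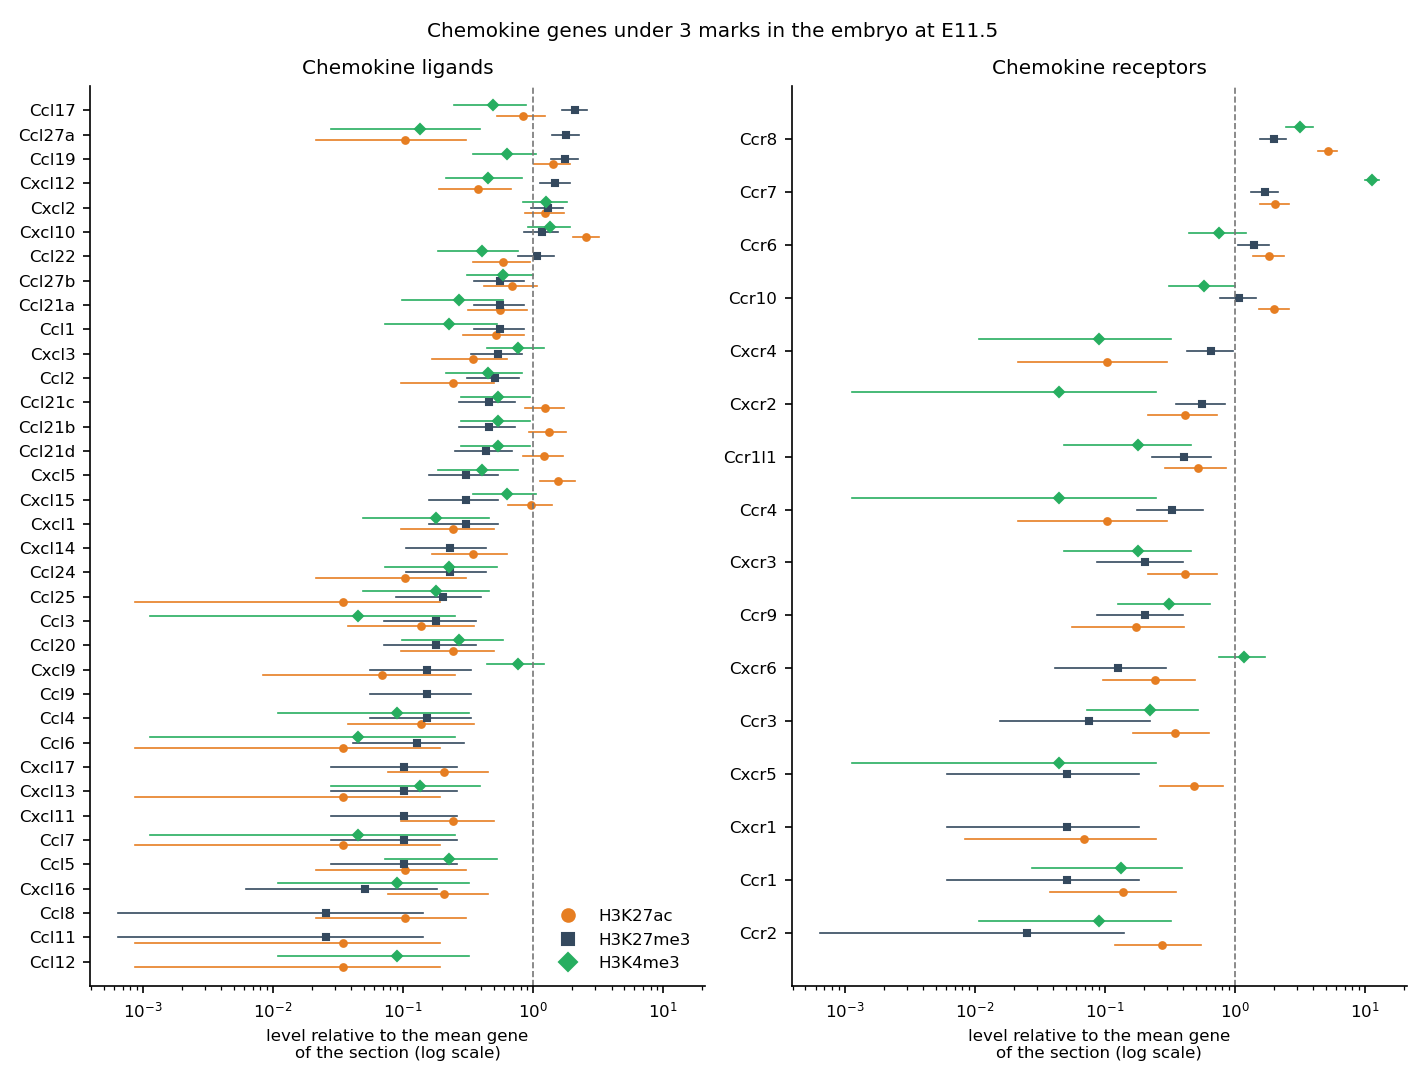
Level of chemokine ligands (left) and receptors (right) in the embryo at E11.5 on a log axis, as reads over the mean reads per gene of the section, with 95% counting intervals, under H3K27ac (circles), H3K27me3 (squares) and H3K4me3 (diamonds), 1 section each. Ccr7 under H3K4me3 lies far to the right, and Ccl27a, Cxcr4 and Cxcl12 have squares right of their other points.

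Between H3K27me3 and H3K4me3, the ligands had a median log2 ratio of -0.01 and the receptors of -0.22, against 0.08 over all 17837 genes compared. The ratio was 1 or more for 8 of 45 members, against 15.1% of all genes, and -1 or less for 4, against 10.4%. Beside Ccl27a and Cxcr4, Cxcr2 was among the highest, with 22 reads against 1, at 2.13 (0.72 to 2.69).

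Ccr7 held 253 reads under H3K4me3, 67 under H3K27me3 and 59 under H3K27ac. Its log2 ratios against H3K4me3 were among the lowest, with -2.72 (-3.11 to -2.34) for H3K27me3 and -2.47 (-2.88 to -2.07) for H3K27ac. Its H3K4me3 reads lay in 139 of 248 spots, and the nearest genes in RefSeq order, Tns4 and Smarce1, held 56 and 3. Cxcr6 held 26, 5 and 7 reads under H3K4me3, H3K27me3 and H3K27ac, with -2.50 (-3.31 to -1.52) and -1.92 (-2.85 to -0.93).

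Between the active marks H3K27ac and H3K4me3, the median log2 ratio was 0.21 over 30 ligands and 0.63 over 15 receptors, against 0.20 over all 17762 genes compared. The ratio was 1 or more for 9 of 45 members, against 17.8% of all genes, and -1 or less for 4, against 9.17%. Highest were Cxcr5 at 1.96 (0.48 to 2.55), Cxcr2 at 1.78 (0.28 to 2.38) and Cxcl5 at 1.66 (0.76 to 2.58). Each held 9 reads or fewer under H3K4me3. Lowest, beside Ccr7 and Cxcr6, was Cxcl9, with 2 reads against 17, at -2.36 (-3.10 to -1.11). The 3 embryo comparisons share sections with one another.

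By reads, Ccr8, Ccr7 and Ccr10 led the receptors under H3K27ac (150, 59 and 58 reads, or 54.1, 5.42 and 23.7 per kb), and Ccr8, Ccr7 and Ccr6 led under H3K27me3 (78, 67 and 55 reads). Under H3K4me3 Ccr7 and Ccr8 were among the leading receptors (253 and 71 reads, or 23.3 and 25.6 per kb). Among the ligands Cxcl10, Cxcl5 and Ccl19 led under H3K27ac (74, 45 and 41 reads), Ccl17, Ccl27a and Ccl19 under H3K27me3 (82, 70 and 69), and Cxcl10 and Cxcl2 under H3K4me3 (30 and 28), followed by Cxcl3 and Cxcl9 with 17 each. The neighbouring Cxcl15 held 14 reads there, and the reads shared by spot with Cxcl3 were 82.4% of those found in either gene.

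Other genes of the pathway held by both sections numbered 26 of 31 in each embryo comparison. For H3K27me3 over H3K27ac 3 were at 1 or more and 5 at -1 or less, the lowest being the scavenging receptor Ackr2 at -2.67 (36 against 184 reads). For H3K27me3 over H3K4me3 these numbers were 3 and 2, with Dpp4, a peptidase that trims chemokines, at 1.94 and the receptor-desensitising arrestin Arrb1 at -3.36. For H3K27ac over H3K4me3 they were 5 and 1. The shares of all genes at 1 or more were 10.4%, 15.1% and 17.8% in the order of these comparisons. At -1 or less the shares were 14.1%, 10.4% and 9.17%.

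The comparison of H3K4me3 in adult brain and embryo contrasts a mature with a developing tissue and rests on few embryo reads. The 18 ligands had a median log2 ratio of 0.52 and the 9 receptors of 1.37, against 0.66 over all 11127 genes compared. The ratio was 1 or more for 10 of 27 members, against 31.4% of all genes, and -1 or less for 3, all receptors, against 5.72%. All 5 neuron markers were held by both, none at 0, with a summed level of 9.23 in brain and 4.19 in embryo.

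Ccr1l1 was highest, with 182 brain reads against 4, a log2 ratio of 2.17 (1.202 to 2.999). Cxcr2 followed with 78 against 1, at 1.96 (0.77 to 2.40), and Ccl27a with 123 against 3, at 1.90 (0.86 to 2.69). Lowest were Ccr7, with 272 against 253, at -2.53 (-2.78 to -2.29), Ccr8, with 154 against 71, at -1.49 (-1.88 to -1.09), and Cxcr6 at -1.18 (-1.77 to -0.57). Ccr7 had nearly as many reads in the embryo section as in the brain section, which held 2036521 reads against 403483.

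Within the brain, Cxcl10 held the most reads of any ligand, 527 in 364 of 1200 spots, or 234 per kb, a level of 2.94. Its log2 ratio against the embryo was 1.34 (0.85 to 1.87). Its neighbours Art3 and Nup54 held 52 and 65. Ccl19 and Cxcl2 came next by reads, with 233 and 162. Among receptors Ccr6 led with 378 reads, a log2 ratio of 1.61 (0.99 to 2.27), before Ccr7 with 272 and Ccr1l1 with 182. Of the other pathway genes 18 of 31 were held by both, 4 at 1 or more and 1 at -1 or less. The shares of all genes compared were 31.4% and 5.72%. Highest of these pathway genes was Prex1, an activator of Rac, at 1.94, and lowest was Arrb1 at -3.37.

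Across the sections, Ccr6 and Ccr7 lay above the mean gene in every section except Ccr6 in embryo H3K4me3, where its level was 0.761, and Ccr7 ran from 1.48 in the control paw to 11.3 in embryo H3K4me3. Cxcl10 lay above it in all 6, from 1.06 in the control paw to 2.94 in the brain. Ccl3 and Cxcl11 lay below 0.25 times the mean gene in every section that held them.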

How the data were processed

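The authors deposited, for every spot, a signal for each gene that had been quantile-normalised, per the file names. The submitters' processing notes name Bowtie2, featureCounts and MACS2 and the builds hg19 and mm9, with roles and versions not given in the sources used here. Ties had been broken by gene order, so genes without reads can carry signal, and reads per spot were therefore recovered from the ties: each fall in gene order marks 1 further read. A sum was flagged as a lower bound where over 10% of a gene's reads lay beyond the counts recovered exactly, and no member was flagged. Recovered reads were 92.9% to 95.4% of the total implied by the deposited signal, so sums can still be somewhat low. Levels, ratios and exact intervals (Poisson for reads, Clopper-Pearson for the split between 2 sections) were computed in Python 3.11.15 with numpy 2.4.6, pandas 2.3.3 and scipy 1.17.1. The pseudocount was 0.1 and the threshold a log2 ratio of 1 in either direction. Intervals cover counting error only, since reads from amplified libraries are not independent molecules. The decoding was tested on simulated data.

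Members, role lists, marker lists and rules were chosen with earlier results of these data known. Named are all members past 2-fold between the paws, the 3 highest and 3 lowest ligands and receptors there, the 3 highest and lowest members of the other comparisons, the 3 ligands and receptors with the most reads per section, all genes held by the control file alone, and Ccr4 with its ligands. Neighbouring genes and lengths follow RefSeq. Other members were named to account for every gene between the paws. The counts include 1 receptor whose own values are not reported here. Protein sequences were not used here, and promoters were printed instead. Alternatives changed the pseudocount, scaling, filter, spots and treatment of shared reads, or used the deposited signal.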

Additional observations from a re-analysis of the deposited data

How the results depend on the processing

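Alternatives were the deposited values, pseudocounts of 1 and 0.01 (the latter for the paws), scaling to the median gene, each spot scaled to its own total (paws), leaving out genes below the median level, odd or even array columns alone, leaving out 6 columns, the share of spots with a read (paws) and leaving out members with a neighbour's reads. Chosen after seeing the data were the deposited values with each spot's factor divided out, and the Ccl21 copies counted as 1 gene.

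The direction of Ccr4, Cxcl12, Ccl21b, Ccl20 and Ccr8 held in all alternatives run. Ccr4 ranged from 3.18 to 6.06, Cxcl12 from 0.83 to 1.80, Ccl21b from 0.56 to 1.43, Ccl20 from -2.33 to -1.07 and Ccr8 from -1.86 to -0.76. With a pseudocount of 1, 1 member was past 2-fold upward (against 4.37% of all genes) and 1 downward (3.85%), and Cxcl12, Ccl21b and Ccr8 were not. By the share of spots 2 were higher (5.94%) and the ligand median was -0.11, against -0.05 over all genes. Without members that have a neighbour's reads, which removes the Ccl21 copies, 2 of 21 were higher, against 11.6% of all genes. With genes below the median level left out, 6 receptors remained for embryo H3K27me3 over H3K4me3, with a median of -1.61, and 5 for brain over embryo, with a median of -1.18. The other medians stayed between the median lower end and the median upper end of the single genes' counting intervals. That range is no interval of the median itself. For the embryo it spans 0, and some medians changed sign there. Scaling to the median gene moved the median of all genes from 0.11 to 0.00 for the paws and from 0.66 to 0.06 for brain over embryo. No paired analysis was possible because each group is 1 section. Reads limit the embryo most, where the median gene holds 7 to 14.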
